A study of Mus musculus with 2 samples.

Results

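The genes described here encode the small leucine-rich proteoglycans (SLRPs), a family of secreted extracellular matrix proteins. The 10 members were the rows of the deposited table with the symbols *Dcn*, *Lum*, *Bgn*, *Fmod*, *Prelp*, *Ogn*, *Aspn*, *Omd*, *Epyc* and *Kera*, out of 22156 genes in all. The family was chosen for its measured counts in these same libraries, so every difference between genotypes is given as a description and has no p-value. RNA sequencing had been run on primary chondrocytes, the cells of cartilage, isolated from rib cartilage of newborn mice and grown in monolayer culture. Each genotype, control and *Myl3*-KO, had 1 library. The question of the comparison was how loss of *Myl3*, which encodes a myosin light chain, alters the transcriptome of these cells. The deletion of floxed *Myl3* is driven by *Col2a1*-Cre and is therefore limited to cells that have used the *Col2a1* promoter. The controls are described in the study as littermates that carry the floxed alleles without Cre, whereas the sample labels give their genotype as WT. The study kept its mice on a C57BL/6J background. The labels do not state the number of animals behind each culture.

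SLRPs have a core protein built of leucine-rich repeats, and many of them carry chains of chondroitin, dermatan or keratan sulfate. They bind collagen fibrils and set their diameter and spacing, and several also bind growth factors such as TGF-beta and cell surface receptors. In cartilage they coat collagen fibrils in the matrix around chondrocytes, and the classes I, II and III are distinguished by sequence and gene structure. Several SLRP genes lie side by side in the genome as clusters.

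The expected counts (estimated reads per gene) summed to 17612435 in control cells and 13477977 in *Myl3*-KO cells, and a count of 3, taken as the floor, was 0.170 CPM (the count relative to the library total) and 0.223 CPM. *Myl3* itself had 0 counts in both libraries, so it could not check the labels. For the same reason the loss of *Myl3* transcript was not visible in these data. Of 15 chondrocyte marker genes in the table, 10 were under 10 counts in all, and 6 of these, including *Acan*, *Matn1*, *Matn3* and *Hapln1*, were at 0 in both. The summed level of the chondrocyte markers was 119.2 CPM in control cells and 118.9 CPM in *Myl3*-KO cells. That of 12 fibroblast and perichondrium markers, a list that includes type I and type III collagen, was 16859 and 19208 CPM. Of the matrix genes on the chondrocyte list, *Col2a1* had 30 and 27 counts and *Col11a2* had 293 and 395. Of the transcription factor genes on that list, *Sox9* (866 and 480 counts) and *Sox5* (893 and 684) were present, while *Sox6* had only 14 and 7 counts. Of the 12 fibroblast markers, 5 were under 10 counts, and *Col1a2* alone was 12017 CPM of the control sum. The labelled cell type was thus not borne out by most of its matrix genes. The fibroblast list was not borne out as a whole either. In bulk RNA, fewer cells of one type and less RNA per cell cannot be told apart.

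In the 2 libraries the SLRP genes did not move as a block. *Dcn* and *Lum*, which adjoin each other on chromosome 10, were 3.12-fold and 2.57-fold lower in *Myl3*-KO. *Omd*, in a cluster on chromosome 13, was 2.31-fold higher, while its neighbours *Aspn* and *Ogn* and the most abundant member, *Bgn*, were 1.28-fold, 1.36-fold and 1.23-fold higher. *Fmod* and *Prelp* had few reads, and *Kera* and *Epyc* had 1 and 0 counts over both libraries.

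The upstream sequence of 4 members is shown because the 3 genes of the chromosome 13 cluster differed in how far they were above the control, and because *Fmod* had the lowest ratio of all members. That rank rests on 19 and 4 counts. With 1 count added to each library, the log2 ratio of *Fmod* was -1.61 and that of *Dcn* was lower at -1.63. The sequences are the 250 bases before the transcription start, taken from RefSeq on GRCm38.p6 and written 5′ to 3′ on the strand of the gene. They are chr13:49544193-49544442 for *Aspn*, chr13:49582212-49582461 for *Omd*, chr13:49607765-49608014 for *Ogn* and chr1:134037004-134037253 for *Fmod*, all on the plus strand. Capitals mark matches, on either strand, to the TATA box (TATAAA), the N-box bound by HES factors (CACNAG) and the RUNX motif (TGTGGT).
Aspn: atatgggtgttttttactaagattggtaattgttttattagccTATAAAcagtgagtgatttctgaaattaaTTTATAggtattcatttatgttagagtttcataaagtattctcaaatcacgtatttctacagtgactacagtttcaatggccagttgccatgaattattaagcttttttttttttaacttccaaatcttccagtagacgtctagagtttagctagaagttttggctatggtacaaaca
Omd: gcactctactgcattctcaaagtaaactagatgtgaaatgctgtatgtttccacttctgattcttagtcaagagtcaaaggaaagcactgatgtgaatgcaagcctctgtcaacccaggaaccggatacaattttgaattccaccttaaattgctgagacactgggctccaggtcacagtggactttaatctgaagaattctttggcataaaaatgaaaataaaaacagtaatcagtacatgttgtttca
Ogn: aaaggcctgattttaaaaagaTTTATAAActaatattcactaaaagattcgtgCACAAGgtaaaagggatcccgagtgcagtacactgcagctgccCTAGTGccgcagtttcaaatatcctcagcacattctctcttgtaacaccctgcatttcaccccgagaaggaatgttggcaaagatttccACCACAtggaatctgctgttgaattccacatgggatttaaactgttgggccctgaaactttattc
Fmod: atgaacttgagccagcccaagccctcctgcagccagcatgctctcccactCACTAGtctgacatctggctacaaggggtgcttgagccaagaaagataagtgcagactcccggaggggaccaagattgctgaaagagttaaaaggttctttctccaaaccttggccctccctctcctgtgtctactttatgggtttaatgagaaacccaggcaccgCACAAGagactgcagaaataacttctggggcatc

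The 3 windows of the chromosome 13 cluster did not share a match. The TATA box letters were in the windows of *Aspn* and *Ogn*, and in 13.6% of all 32851 promoter windows of 300 bases (250 before and 50 after the start). Counted from the start, these matches began at bases -207 and -178 in *Aspn* and at -229 and -227 in *Ogn*. All of them thus lay far upstream, and no promoter type is read from them. In *Ogn* a pair of TATA box matches on opposite strands overlapped. The N-box letters were in the windows of *Fmod*, *Epyc*, *Ogn* and *Bgn* and in 42.5% of all windows. The RUNX letters were in those of *Epyc* and *Ogn* and in 16.8% of all windows. A further pair of motifs was searched in the same way, the RBPJ motif (TGGGAA), found in 25.6% of all windows, and the SMAD motif (CAGACA), found in 21.04%, and among the members both matched *Prelp* and no other. *Omd* matched none of the 5 motifs. Its 250 upstream bases were 38.4% G or C, against 30% in *Aspn*, 42% in *Ogn*, 51.2% in *Fmod* and 64.4% in *Bgn*, with a median of 52.4% over the same stretch of all windows. Such matches are letters in a window and were not measured as bound sites. Of the members, 8 had a promoter window and *Dcn* and *Lum* did not.

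**Figure D1:**
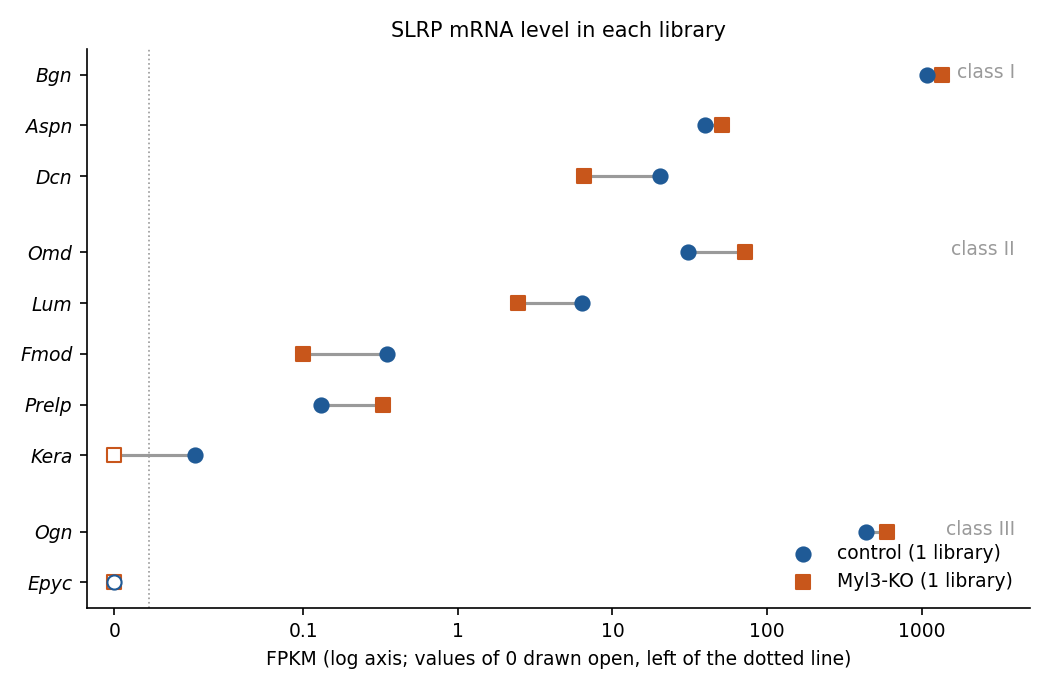
FPKM of each SLRP gene in the control library (circles) and the Myl3-KO library (squares) on a log axis, grouped by class, with values of 0 drawn open. Bgn and Ogn lie at the top in both libraries, Dcn and Lum lie to the left of their control values, and Omd lies to the right.

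The order of abundance was read from FPKM, which scales reads by gene length and library and so allows genes to be compared. In the control it ran from *Bgn* at 1090 FPKM and *Ogn* at 434.9 FPKM, through *Aspn* at 39.8, *Omd* at 31.0, *Dcn* at 20.4 and *Lum* at 6.31 FPKM, to *Fmod* at 0.35, *Prelp* at 0.13 and *Kera* at 0.02 FPKM. In *Myl3*-KO, *Omd* (71.8 FPKM) stood above *Aspn* (50.8 FPKM), and *Prelp* (0.33 FPKM) above *Fmod* (0.10 FPKM), and the other members kept their places. *Bgn* was the 52nd most abundant gene of the table in the control and the 33rd in *Myl3*-KO. *Dcn*, in contrast, was at rank 4308 in the control and at rank 7986 in *Myl3*-KO. With 1 library per genotype there was no replicate check. The 95% intervals below are exact binomial (Clopper-Pearson) intervals for single genes and for sums of genes. For the ratio of one member to another they are a normal approximation. Both kinds cover counting error only.

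The class I members bind collagen and growth factors. *Bgn* (ENSMUSG00000031375, chrX:73483602-73495933) encodes biglycan, a chondroitin or dermatan sulfate proteoglycan of cartilage and bone. It had 46450 expected counts in control cells and 43830 in *Myl3*-KO cells, or 2637 and 3252 CPM, with a log2 ratio of *Myl3*-KO over control of 0.30 (95% interval 0.28 to 0.32). *Aspn* (ENSMUSG00000021388, chr13:49544443-49567565) encodes asporin, which has a stretch of aspartate residues in place of the attachment site for the sugar chains and binds TGF-beta. It had 1618 and 1583 counts, or 91.9 and 117.5 CPM, with a log2 ratio of 0.35 (0.25 to 0.46). Both genes were slightly higher in *Myl3*-KO and neither passed the limit of 1.5-fold used here.

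*Dcn* (ENSMUSG00000019929, chr10:97479609-97518143) encodes decorin, which carries a chondroitin or dermatan sulfate chain, decorates collagen fibrils and sequesters TGF-beta. It had 631 counts in control cells and 155 in *Myl3*-KO cells, or 35.8 and 11.5 CPM, with a log2 ratio of -1.64 (-1.90 to -1.38). Among the 9176 genes that reached 300 counts in the 2 libraries together, its ratio was the lowest. Among the 10485 genes with at least 100 counts it was at rank 3 from the lowest. Neither minimum, 300 or 100 counts, was part of the plan. The members were chosen on these same counts, so the ranks given here and below are only a description. Decorin and biglycan are close relatives, and their transcripts went in opposite directions: *Bgn* had 53.5 times the FPKM of *Dcn* in the control and 205.6 times in *Myl3*-KO. The log2 change of this ratio, which does not depend on how the libraries are scaled to each other, was 1.94 (1.69 to 2.20).

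The class II members are mostly keratan sulfate proteoglycans. *Lum* (ENSMUSG00000036446, chr10:97565128-97572703) encodes lumican, which regulates the thickness of collagen fibrils in cornea, skin and tendon. It had 272 counts in control cells and 81 in *Myl3*-KO cells, or 15.4 and 6.01 CPM, with a log2 ratio of -1.36 (-1.74 to -0.999). Its ratio was at rank 2 from the lowest among the genes with at least 300 counts, next to that of *Dcn*, and at rank 8 among those with at least 100 counts. With 353 counts over both libraries, *Lum* was not far above the minimum of 300. The 2 genes thus stood together at the low end, and the FPKM ratio of *Dcn* to *Lum* was 3.23 in control cells and 2.67 in *Myl3*-KO cells, a log2 change of -0.28 whose interval (-0.72 to 0.16) included 0.

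*Omd* (ENSMUSG00000048368, chr13:49582462-49592822) encodes osteomodulin, also called osteoadherin, an acidic keratan sulfate proteoglycan of mineralized tissue that binds cells through integrin. It had 867 counts in control cells and 1534 in *Myl3*-KO cells, or 49.2 and 113.8 CPM, with a log2 ratio of 1.21 (1.09 to 1.33). Its ratio was the 5th highest among the genes with at least 300 counts and the 10th highest among those with at least 100. *Omd* was thus the well-counted member that stood highest, and relative to *Dcn* its FPKM went from 1.52 times in the control to 11.0 times in *Myl3*-KO, a log2 change of 2.85 (2.57 to 3.13).

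*Fmod* (ENSMUSG00000041559, chr1:134037254-134048277) encodes fibromodulin, which competes with lumican for the same region of type I collagen. It had 19 counts in control cells and 4 in *Myl3*-KO cells, with a log2 ratio of -1.86 (-3.88 to -0.27). *Prelp* (ENSMUSG00000041577, chr1:133910304-133921414, minus strand) encodes a protein with a basic tail that binds heparan sulfate and links basement membranes to collagen. It had 8 counts in control cells and 16 in *Myl3*-KO cells, with a log2 ratio of 1.39 (0.08 to 2.82). Both intervals are wide and end near 0 on one side, so at this depth the sizes of these differences were poorly determined. An antisense gene, *Gm15851*, overlaps *Prelp* in GENCODE, and without a stated strand setting its reads cannot be told apart from those of *Prelp*. *Kera* (ENSMUSG00000019932, chr10:97606879-97613692) encodes keratocan of the cornea and had 1 count in control cells and 0 in *Myl3*-KO cells, which is under the floor, so no ratio is given.

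The class III members come from cartilage, bone and other connective tissue. *Ogn* (ENSMUSG00000021390, chr13:49608046-49624501) encodes osteoglycin, also called mimecan, a small protein of bone and connective tissue matrix. It had 19653 counts in control cells and 20512 in *Myl3*-KO cells, or 1116 and 1522 CPM, with a log2 ratio of 0.45 (0.42 to 0.48). *Epyc* (ENSMUSG00000019936, chr10:97644068-97682454) encodes epiphycan, an SLRP of growth plate cartilage, and had 0 counts in both libraries. Transcript of this cartilage member was therefore not detected in either genotype above the floor of 3 counts.

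**Figure D2:**
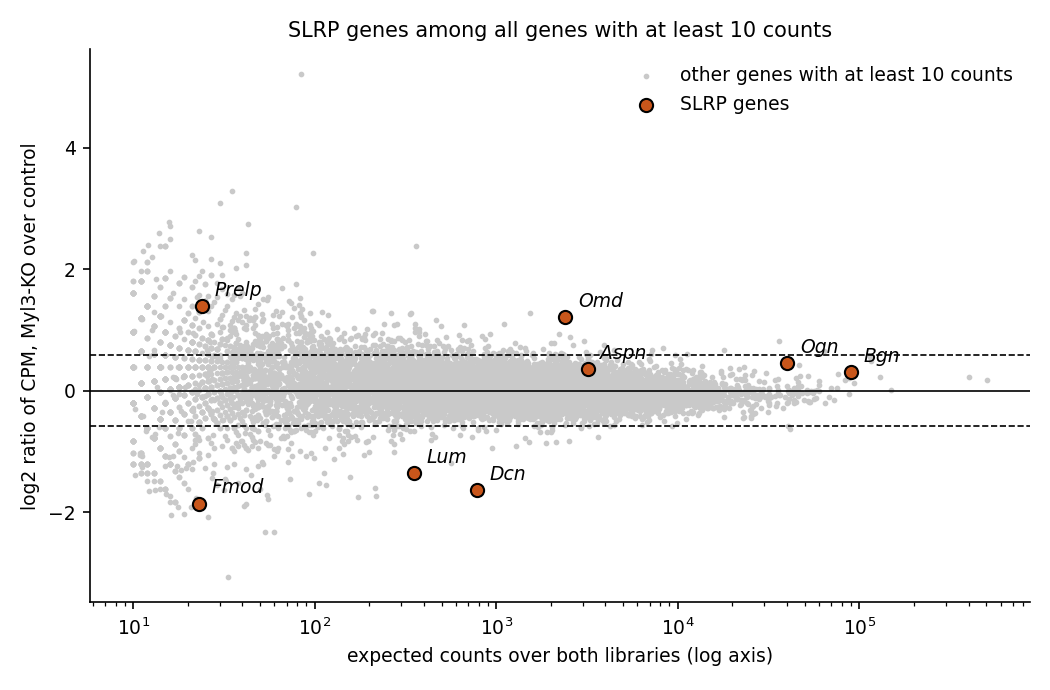
Log2 ratio of CPM, Myl3-KO over control, against the expected counts over both libraries (log axis) for the 12431 genes with at least 10 counts, with the 8 SLRP genes among them labelled and the limit of 1.5-fold dashed. Dcn and Lum lie at the lower edge of the genes with similar counts and Omd near the upper edge.

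Of the 10 members, 8 reached 10 counts in the 2 libraries together. Past 1.5-fold, *Omd* and *Prelp* were higher in *Myl3*-KO, and *Dcn*, *Lum* and *Fmod* were lower. Of all 12431 genes with that many counts, 6.17% were higher and 2.90% were lower by this limit. With at least 100 counts, 6 members were left, of which *Omd* was higher and *Dcn* and *Lum* were lower, where 2.41% of 10485 genes were higher and 0.773% were lower. With at least 1000 counts, 4 members were left, of which *Omd* was higher and 0 were lower, where 0.689% of 6385 genes were higher and 0.282% were lower. The members were selected on these ratios, so nothing is read from these shares. The median log2 ratio of the 8 members was 0.33, against 0.02 over all genes with at least 10 counts. The plot of all genes against counts shows how the spread of the ratios narrows where counts are high.

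As a family, SLRP transcripts took a larger part of the *Myl3*-KO library. The members summed to 69519 counts in control cells and 67715 in *Myl3*-KO cells, which is 0.395% and 0.502% of the library, with a log2 ratio of 0.35 (0.33 to 0.36). The summed FPKM was 1623 and 2069. *Bgn* made up 67.2% of the summed FPKM in control cells and 65.0% in *Myl3*-KO cells, and *Ogn* made up 26.8% and 28.7%. The sum was therefore mainly that of *Bgn* and *Ogn*, which together held 94.0% in control cells and 93.6% in *Myl3*-KO cells. Without that pair the log2 ratio of the sum was 0.37 (0.30 to 0.44). Within this remainder the makeup differed between the libraries. The share of *Omd* in the summed FPKM was 1.91% and 3.47%, that of *Aspn* 2.45% and 2.46%, that of *Dcn* 1.26% and 0.316%, and that of *Lum* 0.389% and 0.118%.

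**Figure D3:**
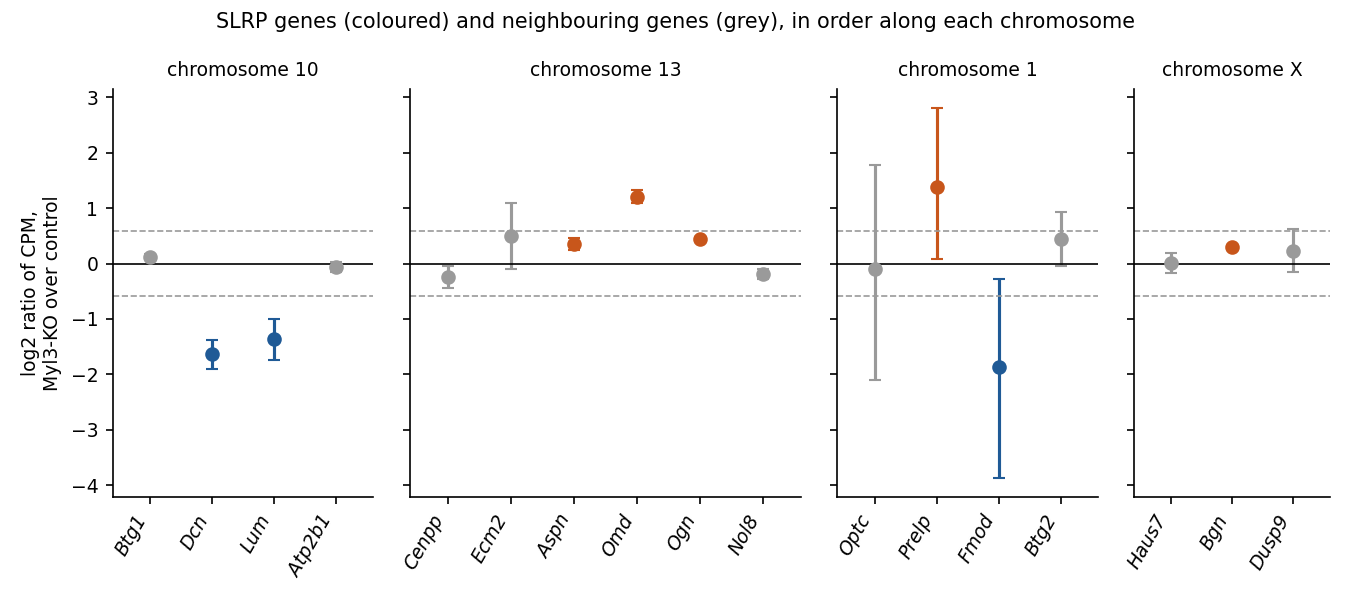
Log2 ratio of CPM, Myl3-KO over control, for SLRP genes with at least 10 counts (coloured) and the counted genes beside them (grey), in their order along each chromosome, with 95% counting intervals and the limit of 1.5-fold dashed. Dcn and Lum lie below the limit between neighbours near 0, and on chromosome 13 Omd lies above the limit between Aspn and Ogn.

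Position along the genome was not part of the rule for choosing the members. Their ratios were in view, however, so a contrast with neighbouring genes is only a description. On chromosome 10, *Dcn*, *Lum*, *Kera* and *Epyc* lie in this order within 202846 bases, with 46984 bases between *Dcn* and *Lum*. The cluster summed to 904 counts in control cells and 236 in *Myl3*-KO cells, a log2 ratio of -1.55 (-1.76 to -1.34). The nearest counted gene before it, *Btg1*, an antiproliferative gene 856800 bases away, had a log2 ratio of 0.12. The nearest after it, *Atp2b1*, which encodes a calcium pump 1231952 bases away, had a log2 ratio of -0.07. The counted genes on either side were thus near 0, but at these distances they say little of the stretch around *Dcn* and *Lum*.

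On chromosome 13, *Aspn*, *Omd* and *Ogn* lie within 80059 bases, 14896 and 15223 bases apart. This cluster summed to 22138 counts in control cells and 23629 in *Myl3*-KO cells, a log2 ratio of 0.48 (0.45 to 0.51), and most of these counts were those of *Ogn*. Within the cluster the FPKM ratio of *Omd* to *Aspn* was 0.779 in control cells and 1.41 in *Myl3*-KO cells, a log2 change of 0.85 (0.70 to 1.01). That of *Omd* to *Ogn* was 0.0713 and 0.121, a log2 change of 0.76 (0.64 to 0.88). *Omd* thus differed from both of its neighbours by more than counting error. The 3 genes lie within *Cenpp*, a centromere protein gene on the opposite strand, which had 530 and 343 counts and a log2 ratio of -0.24 (-0.44 to -0.04). The strand setting of the counting was not stated, so reads of *Cenpp* and of the SLRP genes inside it may have been mixed. The ribosome biogenesis gene *Nol8*, which follows the cluster, had a log2 ratio of -0.19.

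On chromosome 1, *Prelp* and *Fmod* lie 115839 bases apart and stood on opposite sides of 0. Of the genes beside them, *Optc*, the SLRP relative opticin, had 7 and 5 counts, and the antiproliferative gene *Btg2* had 74 and 77 counts with a log2 ratio of 0.44 (-0.04 to 0.92). Beside *Bgn* on chromosome X, *Haus7*, a spindle gene, had a log2 ratio of 0.02, and *Dusp9*, a phosphatase of MAP kinases, one of 0.23. Of the 9 neighbours of all loci, 0 passed 1.5-fold, where 6.17% of all genes with at least 10 counts were higher and 2.90% lower by that limit, so a count of 0 among 9 is near the background. In the plot of the loci, the intervals of *Dcn* and *Lum* stand clear of those of the genes beside their cluster.

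Of 8 genes related to the SLRPs, all had at least 10 counts, 2 were higher past 1.5-fold and 0 were lower, with a median log2 ratio of 0.34. Beside this and each of the following lists stand the same shares over all 12431 genes, 6.17% higher and 2.90% lower, and the median of 0.02, and nothing particular to a list is read from its count. Those higher were *Podn*, which encodes podocan, with 36 and 48 counts and a log2 ratio of 0.80 (0.15 to 1.47), and *Nyx*, nyctalopin of the retina, with 4 and 7 counts and a log2 ratio of 1.19 (-0.78 to 3.41). The best counted, *Podnl1*, had 394 and 339 counts and a log2 ratio of 0.17 (-0.05 to 0.38). *Tsku*, which encodes the secreted signalling inhibitor tsukushi, had 168 and 142 counts with a log2 ratio of 0.14. *Ecm2*, which lies before *Aspn*, had 48 and 52 counts with a log2 ratio of 0.50. *Chad* (chondroadherin of cartilage), *Chadl* and *Optc* had log2 ratios of 0.58, -0.24 and -0.10, each from fewer than 100 counts. None of the 8 relatives was lower past the limit, which is near the 2.90% of all genes and sets *Dcn* and *Lum* apart from nothing.

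**Figure D4:**
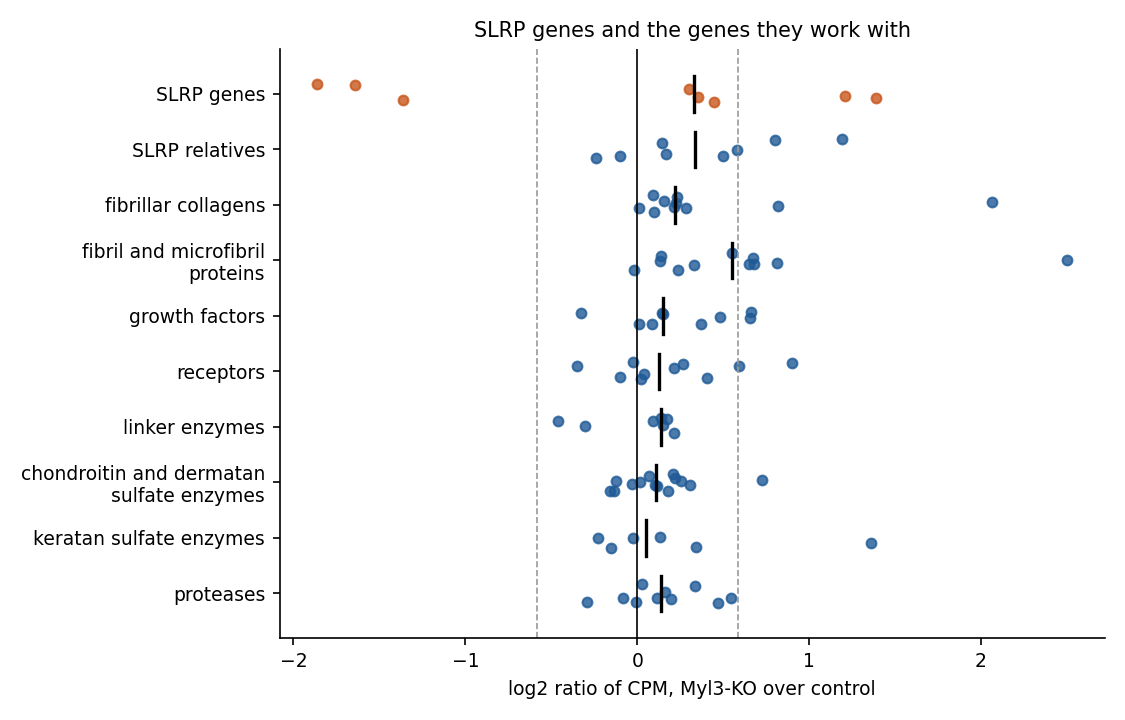
Log2 ratio of CPM, Myl3-KO over control, for SLRP genes (top row) and for the groups of genes they work with, 1 point per gene with at least 10 counts, medians as black bars and the limit of 1.5-fold dashed. Most companion genes lie inside the limit, and no companion gene of these groups lies as low as Dcn and Lum.

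The collagens that SLRPs coat were measured beside them. Of 11 fibrillar collagen chains, 10 had at least 10 counts, 2 were higher past 1.5-fold and 0 were lower, with a median log2 ratio of 0.22. *Col1a2* of type I collagen, with 211652 and 189213 counts, had a log2 ratio of 0.22, *Col1a1* of the same collagen had one of 0.15, and *Col3a1* of type III collagen had one of 0.01. *Col11a2*, a chain of the thin fibrils of cartilage, had 293 and 395 counts and a log2 ratio of 0.82 (0.60 to 1.04), and *Col5a3* was higher on 10 and 32 counts. Decorin and lumican transcripts were thus lower in *Myl3*-KO while transcripts of the main fibril chains were not.

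Of 18 genes for proteins that sit on fibrils or form type VI collagen microfibrils, 11 had at least 10 counts, 5 were higher and 0 were lower, with a median log2 ratio of 0.55, beside 6.17% and 2.90% over all genes. All 3 listed chains of type VI collagen, a partner of decorin and biglycan, were among those higher. *Col6a1* had 28929 and 34747 counts with a log2 ratio of 0.65, *Col6a2* had 15333 and 20630 counts with one of 0.81, and *Col6a3* had 8100 and 9909 counts with one of 0.68. The others, *Tnxb* and *Col9a3*, had no more than 22 counts in a library. *Thbs1*, thrombospondin, was abundant and had a log2 ratio of 0.13.

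Among the growth factors that SLRPs bind, 9 of 13 had at least 10 counts, 2 were higher (*Tgfb1* and *Pdgfb*) and 0 were lower, with a median log2 ratio of 0.15. *Tgfb1* had 530 and 638 counts and a log2 ratio of 0.65 (0.49 to 0.82). *Tgfb2*, the better counted TGF-beta gene, had 4282 and 2607 counts and a log2 ratio of -0.33 (-0.40 to -0.26), and *Bmp4* had one of 0.01. Of 13 receptor genes, 10 had at least 10 counts, 2 were higher (*Lrp1* and *Egfr*) and 0 were lower, with a median of 0.13. *Lrp1*, an endocytic receptor for decorin, had 4484 and 5170 counts and a log2 ratio of 0.59 (0.53 to 0.65), just past the limit and under it (0.56 and 0.57) with TMM or DESeq2 scaling, while *Egfr* had 7 and 10 counts. *Itgb1* and *Cd44* had log2 ratios of -0.10 and 0.04. Of 10 genes commonly induced by TGF-beta, 9 had at least 10 counts and 1 was higher, *Ltbp2*, with 72 and 137 counts and a log2 ratio of 1.31 (0.89 to 1.75), and 0 were lower. *Tgfbi*, the best counted of them by FPKM, had a log2 ratio of 0.12, and the median of the list was 0.15.

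The enzymes that build SLRP sugar chains mostly stayed inside the limit. Of 7 enzymes that make the linker between core protein and chain, 0 were past 1.5-fold and the median log2 ratio was 0.14, with *B3gat3* at 0.22 and *Fam20b* at 0.14. Of 16 enzymes of chondroitin and dermatan sulfate, 14 had at least 10 counts, 1 was higher and 0 were lower, with a median of 0.11. The higher one was *Chst15*, a sulfotransferase, with 101 and 128 counts and a log2 ratio of 0.73 (0.34 to 1.12), while *Dse*, the epimerase that turns chondroitin into dermatan sulfate, had one of 0.02 and *Chst11* one of 0.11. Of 8 keratan sulfate enzymes, 6 had at least 10 counts, 1 was higher and 0 were lower, with a median of 0.05. That gene was *Chst1*, which sulfates the galactose of keratan sulfate, with 26 and 51 counts and a log2 ratio of 1.36 (0.65 to 2.10), whereas *B4galt1* and *B3gnt2* had 0.34 and -0.15. A list of 16 genes held proteases that cut SLRPs or their propeptides and *Pcolce*, the enhancer of procollagen processing, which is not a protease. Of these, 10 had at least 10 counts and 0 were past the limit in either direction. The median was 0.14, with *Mmp14* at 0.34 and *Pcolce* at 0.03.

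Markers of other cell types in rib tissue that also express SLRPs are given beside these values, and their part in the SLRP differences was not tested. Of 12 fibroblast markers, 7 had at least 10 counts, 1 was higher (*Pdgfra*, log2 ratio 0.61, and 0.58 and under the limit with TMM or DESeq2 scaling) and 0 were lower. *Col1a2* alone was 12017 of the 16859 CPM summed over this list in control cells, so the sum says little of the other markers. Of 6 tendon markers, 4 had at least 10 counts, *Egr1* was higher with a log2 ratio of 1.10, 0 were lower, and the sum was 117.9 CPM in control cells and 104.5 CPM in *Myl3*-KO cells. *Scx*, a tendon transcription factor, had a log2 ratio of 0.13 and *Tnc* one of -0.44. Of 9 osteoblast markers, 5 had at least 10 counts, *Spp1* was higher (0.64) and *Alpl*, alkaline phosphatase, was lower with 46 and 7 counts and a log2 ratio of -2.33 (-3.72 to -1.17). The osteoblast sum was 256.9 and 260.0 CPM, and *Runx2* and *Phex* had log2 ratios of 0.11 and -0.36. Of 15 chondrocyte markers, 5 had at least 10 counts, with *Col11a2* higher, *Sox6* lower on 14 and 7 counts, *Sox9* at -0.47 and *Sox5* at 0.00. The summed muscle, immune and endothelial markers stayed under 4 CPM in each library, and among them only *Vwf* of the endothelial list, with 22 and 29 counts, passed 1.5-fold. The other genes named from these lists, picked by mean FPKM, also had few reads. For muscle they were *Mylpf* with 16 and 15 counts and *Acta1* with 5 and 1. For immune cells they were *Cd68* with 18 and 16 counts and *Lyz2* with 6 and 5. For endothelium it was *Pecam1* with 5 and 5.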

How the data were processed

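Primary rib chondrocytes of control and *Myl3*-KO mice were sequenced, with 1 library per genotype. The authors deposited expected counts per gene, which are estimated reads without normalization, and beside them FPKM values, which are scaled by gene length and library and rounded to 2 decimals. The control column is headed NC and was read as control because the other is headed KO. Per the labels a SMARTER kit was used, whereas the study's methods describe enrichment on oligo beads. The submitters' processing notes name the builds GRCm38 and mm10. The aligner, the counting tool and the strand setting are not given in the sources used here.

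Ratios are CPM of *Myl3*-KO over control, with the library total as denominator and counts under 3 raised to 3. Intervals (95%, Clopper-Pearson) used counts rounded to whole numbers. Intervals of the log2 change in FPKM ratios combined the counting errors of both genes, by a normal approximation for the log odds ratio of the rounded counts. Genes needed at least 10 counts over both libraries (12431 of 22156). The limit was 1.5-fold. With 1 library per genotype no residual degrees of freedom were left, no test was run, and edgeR and DESeq2 served only for scaling factors. The procedure was tested on simulated counts that held counting error only. That test says nothing of the spread between animals or cultures. The members, gene lists and motifs were chosen with earlier results of these data known. Named genes were all members and relatives, and of every other list the 2 with the highest mean FPKM and up to 3 past the limit with at least 50 counts, plus the nearest counted genes of each locus. *Acan*, *Matn1*, *Matn3*, *Hapln1*, *Col2a1*, *Col5a3*, *Tnxb*, *Col9a3*, *Pdgfb*, *Egfr*, *Sox6* and *Gm15851* were named after their values were seen.

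Coordinates of genes come from GENCODE M21 on GRCm38, which held 21881 of the identifiers, and promoters from RefSeq on GRCm38.p6. Alternatives were TMM factors, DESeq2 size factors, the FPKM ratio, other limits and count minimums, 1 added count and shares by counts. Python 3.11.15, numpy 2.4.6, pandas 2.3.3, scipy 1.17.1, matplotlib 3.10.9, R 4.3.3, edgeR 4.0.16 and DESeq2 1.42.0 were used.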

Additional observations from a re-analysis of the deposited data

How the results depend on the processing

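Of 77 values recomputed under the alternatives, 59 stayed within counting error or within 1.5 times the reported count, and 18 moved further. No member ratio and no summed ratio changed sign. The remaining values are counts and shares, which have no sign. TMM scaling shifted all log2 ratios by -0.03 and DESeq2 size factors by -0.02. *Bgn* then had a log2 ratio of 0.28 under both, and the summed ratio was 0.32 under both. The number of members higher past the limit was 1 if 10 counts were needed in each library, 4 with the limit lowered to a ratio 25% above 1 or its inverse and 1 with at least 100 counts, a minimum chosen after seeing the data. Pooled over all lists, 20 of 114 companion genes were higher and 2 lower, beside 6.17% and 2.90% of all genes with at least 10 counts. The number higher was 18 with TMM or DESeq2 scaling, which put *Lrp1* and *Pdgfra* under the limit. It was 33 at the lower limit, 6 at 2-fold and 11 with at least 100 counts. The number lower was 1 with 1 count added, 0 if each library needed 10 counts, 8 at the lower limit, 1 at 2-fold and 0 with at least 100 counts. Of all genes with at least 100 counts, 2.41% were higher and 0.773% lower. Shares of all genes under the other settings are not given, so nothing is read from these counts. By counts in place of FPKM, *Bgn* held 66.8% of the family in the control, and *Ogn* held 28.3% in the control and 30.3% in *Myl3*-KO. No paired analysis was possible because each genotype has 1 library, and for the same reason no replicate could be left out. The spread between animals or cultures is unknown, and the counts of *Fmod* and *Prelp* limit what can be said of their size.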

Other observations

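The deposited table annotates genes with the gene ontology term proteinaceous extracellular matrix, which all 10 SLRP members and 317 genes in all carry. Of these, 169 had at least 10 counts over both libraries, and 28 were higher and 14 lower in *Myl3*-KO by 1.5-fold, where 6.17% of all genes with that many counts were higher and 2.90% lower. With at least 100 counts, 126 were left, with 16 higher and 4 lower, where 2.41% of all genes were higher and 0.773% lower. *Dcn* and *Lum* had the lowest log2 ratios of the 126 and *Omd* the highest. The other lower genes were *Tnn*, which encodes tenascin-W of bone and perichondrium, with 2506 and 1128 counts and a log2 ratio of -0.77 (95% counting interval -0.87 to -0.66), and *Phospho1*, a phosphatase of mineralizing cells, with a log2 ratio of -0.62 (-1.18 to -0.10). Among the higher genes were *Fbn1*, which encodes fibrillin, with a log2 ratio of 0.67 (0.60 to 0.73), *Adamts2*, which processes procollagen, with 0.78 (0.66 to 0.91), and *Ecm1*, a secreted matrix protein, with 0.78 (0.65 to 0.91). The choice of these examples was made with their values in view.

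*Dcn* was the only SLRP member annotated to the TGF-beta signaling pathway in the table. Of 83 genes with that annotation 62 had at least 10 counts, of which 3 were higher and 2 lower, with a median log2 ratio of -0.03, and these counts are near the 6.17% and 2.90% of all genes. Those lower were *Dcn* and *Id4*, a target of BMP signalling, with 105 and 39 counts and a log2 ratio of -1.04 (-1.61 to -0.50).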
